A study of Mus musculus with 24 samples.

Results

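The genes described here are the 10 mouse genes of major histocompatibility complex (MHC) class II presentation and of its costimulation that were listed by name: H2-Aa, H2-Ab1, and H2-Eb1, which encode the class II chains, H2-DMa and H2-DMb1, which encode the peptide-exchange factor DM, Cd74, Ciita, Cd80, Cd86, and Cd40. All 10 were present among the 23930 amplicons of the table, and all 10 passed the filter on low values in both cell subsets. Their RNA was measured in 24 libraries of splenic monocytes from C57BL/6 mice, sorted as CD11b+ NK1.1- Ly6G- cells into Ly6C hi and Ly6C low cells, which the labels call macrophages. WT mice (the labels' control), Slc29a3-/- mice, and Slc29a3-/- Tlr7-/- mice gave 4 libraries of each subset, 6 groups in all. SLC29A3 carries nucleosides out of lysosomes, and TLR7 is an endosomal sensor of nucleosides and single-stranded RNA. The mice were untreated and their age is not given in the sources used here. Both mutations were made in zygotes with CRISPR/Cas9 and are therefore present in every cell of the animal, and the WT mice were bought, so WT libraries are not from littermates of the mutants. All mutants compared here carry the Slc29a3 mutation, so that the mutant groups differ in their Tlr7 genotype, whereas a group with Tlr7 alone mutated was not analysed here. No label says whether libraries of a group came from separate animals, so a p-value measures only the spread between these libraries.

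Class II molecules carry peptides from endosomes to the cell surface, where CD4+ T cells read them. The α and β chains assemble around the invariant chain CD74, which blocks the groove until lysosomal proteases trim it, and DM then exchanges the remaining fragment for peptide. CIITA is the coactivator that switches on these genes, and CD80, CD86, and CD40 provide the costimulatory contacts with T cells. Monocytes carry less class II than dendritic cells or B cells.

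The H2 genes lie together on chromosome 17 (mm10, GENCODE vM21), in the order H2-DMa (34119541 to 34139101), H2-DMb1 (34153072 to 34160230), H2-Ab1 (34257689 to 34269419), H2-Aa (34282744 to 34287823, minus strand), and H2-Eb1 (34305867 to 34316674). Ciita (10480059 to 10528418), Cd86 (36603869 to 36666081, minus strand), and Cd80 (38455561 to 38496335) lie on chromosome 16, and Cd40 (165055627 to 165072948) lies on chromosome 2. The amplicon of each gene reads 1 stretch of its RNA, whose position was not used here.

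Because several class II genes were called between the mutants in the same direction, the RefSeq promoters were read for shared letters. A window of 250 bases before and 50 bases after the start was held for 5 of the 10 members (H2-Aa, H2-Eb1, H2-DMa, H2-DMb1, and Cd80), in 6 windows. The 130 bases before the start are shown for H2-Aa (GRCm38.p6, chr17:34287824-34287953, minus strand) and H2-Eb1 (chr17:34305737-34305866, plus strand), the α and β chain genes with a window, 5′ to 3′ along the gene, with CCAAT on either strand and a run shared with H2-DMb1 in capitals.
H2-Aa: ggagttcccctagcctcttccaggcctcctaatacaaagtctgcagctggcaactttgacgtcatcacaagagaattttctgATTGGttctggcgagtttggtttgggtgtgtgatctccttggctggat
H2-Eb1: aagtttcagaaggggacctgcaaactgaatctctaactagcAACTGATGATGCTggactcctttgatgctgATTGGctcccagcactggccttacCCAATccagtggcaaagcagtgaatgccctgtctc
The CCAAT box, the letters of the Y box of class II promoters, stood 48 bases before the start of H2-Aa, 61 bases before that of H2-DMb1, and 59 and 35 bases before that of H2-Eb1. It was also found in 1 of the H2-DMa windows and not in that of Cd80, against 37.4% of all 32817 windows of this length, both strands searched. The longest run shared by the promoters of H2-Eb1 and H2-DMb1, AACTGATGATGCT, was picked after the sequences were seen and occurred in 3 of the 32817 windows (0.00914%), the other being that of Slc39a10. It preceded the CCAAT box by 17 bases in H2-Eb1 and by 18 bases in H2-DMb1. The motif GGNNNTTCC, part of the NF-kB site, was found in H2-Aa, H2-DMb1, H2-DMa, and Cd80 (18.5% of all windows), whereas AACANNTG (part of the X box, 13.5%), TTCNNNGAA (GAS, 8.29%), and GAAANNGAA (part of the ISRE, 8.55%) were found in none of the 6 windows, which says only that these letters are not there. The shared run opens with AACTGATG, which differs from AACANNTG in 1 letter. The search with AACANNTG therefore does not show that these promoters lack an X box. These matches describe letters and not binding.

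The values are reads per 1000000 reads of the library (RPM) of 1 amplicon per gene, so that levels can be compared between libraries for 1 gene but not between genes. The step between low values puts the depth at 12311031 to 14572210 reads per library, at which 3 reads equal 0.206 to 0.244 RPM, far below every value of a member. WT replicates 1 to 3 carried barcodes 11 to 16, against 24 to 46 in all other libraries. By Euclidean distance over the log2 values of the tested genes, they were at most 24.3 apart in Ly6C hi cells (Ly6C low 44.4). WT replicate 4 was at least 63.7 from them in Ly6C hi cells (Ly6C low 67.4). Double mutant libraries were also far from each other, at 60.8 to 84.2 in Ly6C hi and 54.4 to 103 in Ly6C low cells. Calls against WT are therefore given also with replicate 4 as the only WT library, a fit in which its spread is taken to be that of the other groups. The amplicons of Slc29a3 and Tlr7 were still read in the mutants (Slc29a3 127 to 173 RPM in Slc29a3-/- Ly6C hi cells and Tlr7 259 to 345 RPM in double mutant Ly6C hi and 355 to 627 RPM in double mutant Ly6C low cells), so the genotypes rest on the labels. By their monocyte markers the subsets matched their names: the summed markers of Ly6C hi monocytes were 3120 to 8969 RPM in that subset and 29.004 to 291 RPM in Ly6C low cells. Neutrophil markers summed higher than these in the Ly6C hi libraries of WT (12654 to 20187 RPM) and Slc29a3-/- (38930 to 74889 RPM). The same held in double mutant Ly6C hi libraries except replicate 3 (5805 RPM, against 7913 RPM of the monocyte markers). The sex of the mice is not given in the labels, and sex-linked RNAs were not balanced between the groups. Ddx3y, a Y-linked gene, was above 10 RPM in 1 of 4 libraries of each WT and each Slc29a3-/- group, but in 3 of 4 of each double mutant group, and in 3 of the latter libraries Xist was above 10 RPM as well. In WT it was replicate 4, so that barcode range and sex cannot be told apart there. Whether RNA of several animals was pooled is not given in the sources used here. With Ddx3y above 10 RPM as a term of the fit, an alternative chosen after seeing the data, 7 members in Ly6C hi and 5 in Ly6C low cells were called between the mutants. Ciita lost its call in Ly6C hi cells, and H2-DMb1 gained 1 in Ly6C low cells (log2 -1.11, limma adjusted p = 0.0258). The share of all genes called in that fit is not given here, so these counts are not set against it.

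**Figure D1:**
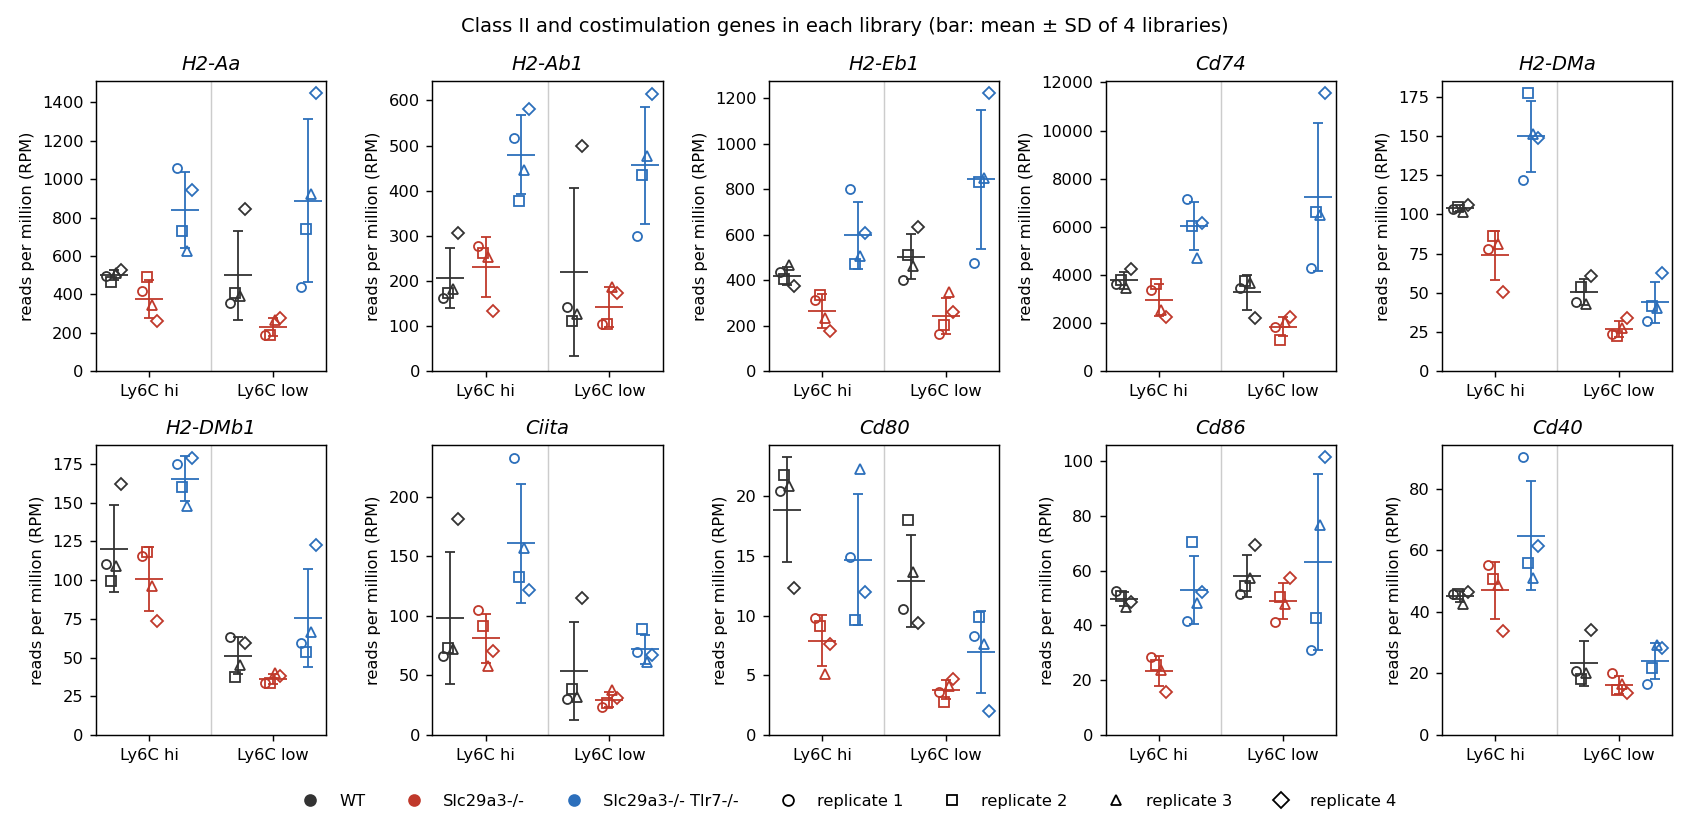
Level of each gene in each of the 24 libraries, in RPM on linear axes from 0. Symbols are replicates, colours are genotypes, and bars are the mean ± SD of 4 libraries. In both subsets the means of H2-Aa, H2-Ab1, H2-Eb1, and Cd74 were highest in Slc29a3-/- Tlr7-/- libraries, and lowest in Slc29a3-/- libraries except for H2-Ab1 in Ly6C hi cells, with WT replicate 4 (diamonds) away from the other WT libraries for H2-Ab1 and Ciita.

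A gene was called when limma on log2(RPM + 1) gave a Benjamini-Hochberg adjusted p under 0.05 over all genes tested and a fold change above 1.5. All adjusted p-values below are from limma, all log2 fold changes are on that scale, and all exact permutation tests are two-sided, with 0.029 as the smallest p that 4 against 4 libraries allow. Among Ly6C hi cells, Slc29a3-/- had lower levels of 8 of the 10 genes than Slc29a3-/- Tlr7-/- and a higher level of none, against 8.22% of all 10561 genes called lower and 9% called higher. In these bulk libraries, fewer cells of a type and less RNA per cell cannot be told apart. In Ly6C low cells, 4 of the 10 were lower and none higher in that comparison, against 0.708% lower and 1.22% higher among 10317 genes. The median log2 fold change of the 10 genes was -1.03 in Ly6C hi and -1.11 in Ly6C low cells, whereas that of all genes was -0.12 and 0.08.

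Compared with WT, 3 of the 10 genes were lower in Slc29a3-/- Ly6C hi cells, where 14.3% of all genes were called lower and 8.15% higher, and 3 were lower in Slc29a3-/- Ly6C low cells, where 2.53% were called lower and 1.9% higher. In the double mutant, 1 gene was higher than WT in each subset and none was lower. The share of all genes called there was 0.312% higher and 1.11% lower in Ly6C hi cells, and 2.28% higher and 6.03% lower in Ly6C low cells. The members' median was -0.41 (all genes -0.14) for Slc29a3-/- and 0.49 (all genes -0.06) for the double mutant in Ly6C hi cells, and -0.72 (all genes 0.00) and 0.57 (all genes -0.10) in Ly6C low cells. Scaling by TMM moved the median of all genes in Slc29a3-/- against WT Ly6C hi cells to -0.01 and the calls from 861 higher and 1507 lower to 1202 and 1127, with 2 members lower. Between the mutants in Ly6C hi cells it moved the calls from 951 higher and 868 lower to 1106 and 595, with 7 members lower. The comparisons of a subset share their libraries: both mutants are set against the same WT libraries, and the Slc29a3-/- libraries enter 2 of the 3 comparisons.

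**Figure D2:**
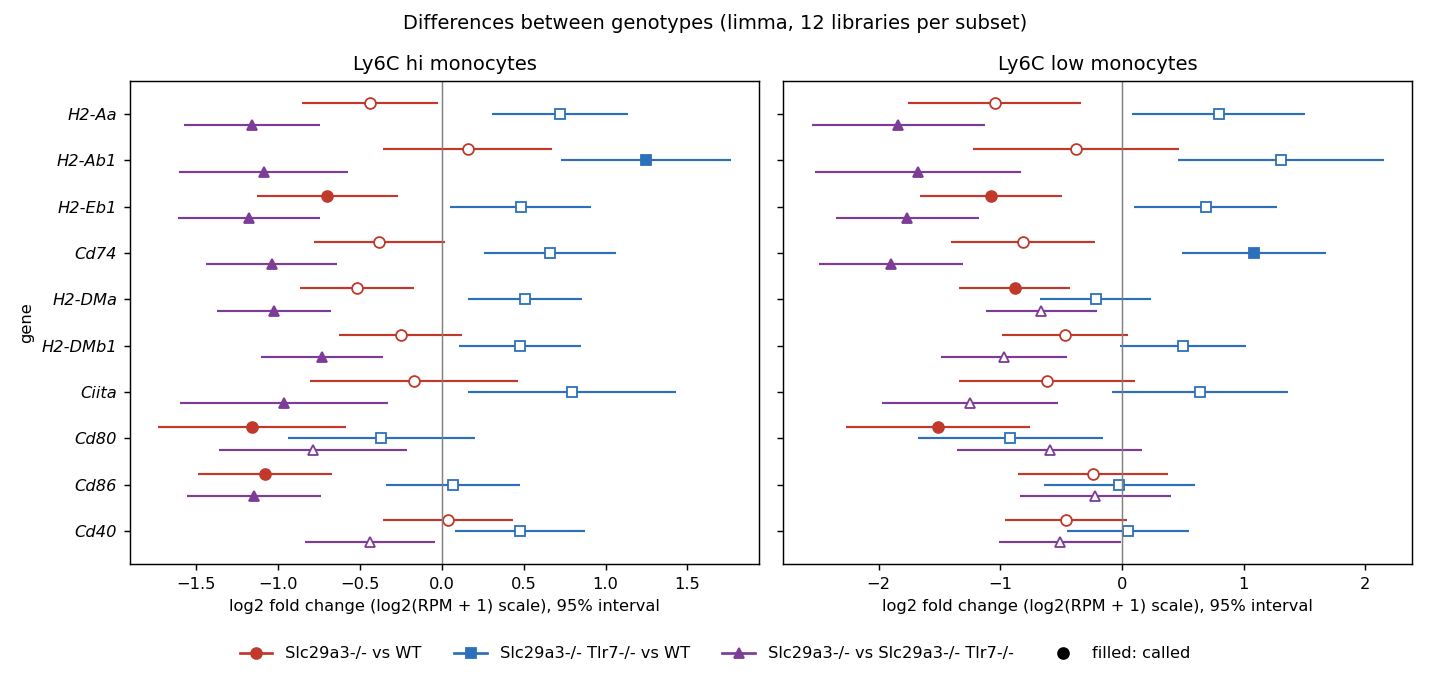
Log2 fold change of each gene between genotypes, with the 95% interval of limma, for Ly6C hi (left) and Ly6C low monocytes (right); the axes differ in range. Filled symbols were called. Purple triangles (Slc29a3-/- against the double mutant) lie to the left of 0 for all 10 genes in both subsets, and are filled for 8 genes on the left and 4 on the right.

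Among the class II chains, H2-Aa encodes the α chain of the I-A molecule. H2-Aa levels in Ly6C hi cells were 497, 465, 511, and 525 RPM in WT replicates 1 to 4, 420.5, 489, 345, and 259 RPM in Slc29a3-/- libraries, and 1057, 732, 627, and 944 RPM in Slc29a3-/- Tlr7-/- libraries. Every double mutant library lay above every library of the other genotypes, and the WT and Slc29a3-/- ranges overlapped. The difference between the mutants was 2.23-fold (log2 -1.16 ± 0.19 SE, adjusted p = 0.000976), while the differences from WT did not pass the test (log2 -0.44, adjusted p = 0.107, and 0.72, adjusted p = 0.0676).

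H2-Aa in Ly6C low cells measured 353, 409, 389.6, and 847 RPM in WT, 189, 186, 267, and 277 RPM in Slc29a3-/-, and 437, 739, 925, and 1448 RPM in Slc29a3-/- Tlr7-/- libraries. The Slc29a3-/- libraries were the lowest 4 of the 12, and WT replicate 4 lay among the double mutant libraries. H2-Aa was 3.58-fold lower in Slc29a3-/- than in the double mutant (log2 -1.84 ± 0.33, adjusted p = 0.00807). Against WT it differed by -1.05 in Slc29a3-/- (adjusted p = 0.0891) and by 0.79 in the double mutant (adjusted p = 0.132). Without WT replicate 4 the double mutant was called higher than WT (1.08, adjusted p = 0.0288), without double mutant replicate 1 as well (1.09, adjusted p = 0.0352), and with WT replicate 4 alone it differed by -0.06.

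H2-Ab1 encodes the β chain that pairs with it. Its Ly6C hi values were 163, 173, 182, and 306 RPM in WT, 277, 261, 253, and 133 RPM in Slc29a3-/-, and 517, 378, 445, and 581 RPM in double mutant libraries. Here 3 Slc29a3-/- libraries lay above 3 WT libraries, Slc29a3-/- replicate 4 was the lowest of all, and the double mutant libraries were all above the others. H2-Ab1 was the only member called between the double mutant and WT in this subset (2.37-fold, log2 1.25 ± 0.24, adjusted p = 0.0377), and it was 2.13-fold lower in Slc29a3-/- than in the double mutant (log2 -1.09 ± 0.24, adjusted p = 0.00606). The first call was lost without WT replicate 1, 2, or 3 or double mutant replicate 2, 3, or 4 (log2 1.15 to 1.36, adjusted p = 0.0723 to 0.176), and with Ddx3y as a term (1.10, adjusted p = 0.138). Set against WT replicate 4 by itself the difference was 0.63 and was not called.

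The H2-Ab1 values of Ly6C low cells were 143, 112, 126, and 498 RPM in WT, 104, 106, 186, and 173 RPM in Slc29a3-/-, and 300.3, 434, 476, and 614 RPM in double mutant libraries. WT replicate 4 was far above the other WT libraries and lay within the double mutant range, and every Slc29a3-/- library was below every double mutant library. The mutants differed 3.21-fold (log2 -1.68 ± 0.40, adjusted p = 0.0438), a call that was lost in 6 of 8 refits with 1 mutant library left out (each of the 4 Slc29a3-/- libraries and double mutant replicates 3 and 4, log2 -1.83 to -1.52, adjusted p = 0.0725 to 0.152). The double mutant differed from WT by 1.31 (adjusted p = 0.0531), by 1.80 without WT replicate 4, where it was called (adjusted p = 0.00084), and by -0.17 with WT replicate 4 alone.

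H2-Eb1 encodes the β chain of the I-E molecule. C57BL/6 mice do not express its α chain, and the amplicon of that pseudogene, H2-Ea-ps, was at 0 in all 24 libraries. In Ly6C hi cells H2-Eb1 measured 435, 406, 466, and 373 RPM in WT, 315, 336, 236, and 176 RPM in Slc29a3-/-, and 799, 472, 508, and 608 RPM in double mutant libraries. The 3 genotypes did not overlap, with Slc29a3-/- lowest and the double mutant highest, although the highest WT library (466 RPM) and the lowest double mutant library (472 RPM) were close. H2-Eb1 was 1.62-fold lower in Slc29a3-/- than in WT (log2 -0.70 ± 0.20, adjusted p = 0.0194) and 2.26-fold lower than in the double mutant (log2 -1.18 ± 0.20, adjusted p = 0.00112). The call against WT was lost without WT replicate 1 or 3 or Slc29a3-/- replicate 3 or 4 (log2 -0.68 to -0.52, adjusted p = 0.0515 to 0.058), and under TMM and RLE scaling, where the fold was below 1.5 (log2 -0.56, adjusted p = 0.0353, and -0.58, adjusted p = 0.0324).

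H2-Eb1 in Ly6C low cells measured 403, 509, 464, and 635 RPM in WT, 164, 202, 347, and 262 RPM in Slc29a3-/-, and 475, 830.4, 849.9, and 1222 RPM in double mutant libraries. The Slc29a3-/- libraries again lay below all others, and the WT and double mutant ranges overlapped. H2-Eb1 was 2.11-fold lower in Slc29a3-/- than in WT (log2 -1.08 ± 0.27, adjusted p = 0.0387) and 3.40-fold lower than in the double mutant (log2 -1.77 ± 0.27, adjusted p = 0.00356). Leaving out WT replicate 1, 2, or 3 or Slc29a3-/- replicate 1, 2, or 4 ended the call against WT (log2 -1.18 to -0.91, adjusted p = 0.064 to 0.129). Reads of H2-Eb1 and of its related neighbour H2-Eb2 could be split differently by other counting, so its exact level is uncertain.

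Cd74, the invariant chain, was called between the mutants in both subsets. Cd74 levels in Ly6C hi cells were 3639, 3771, 3459.8, and 4269 RPM in WT, 3391, 3626, 2527, and 2267 RPM in Slc29a3-/-, and 7162, 6053, 4720.4, and 6169 RPM in double mutant libraries. All double mutant libraries were above all others, and 1 Slc29a3-/- library lay within the WT range with the others below it. Cd74 was 2.06-fold lower in Slc29a3-/- than in the double mutant (log2 -1.04 ± 0.19, adjusted p = 0.0016) and differed from WT by -0.38 in Slc29a3-/- (adjusted p = 0.146) and 0.66 in the double mutant (adjusted p = 0.0748).

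The Ly6C low values of Cd74 were 3461, 3762, 3678, and 2202 RPM in WT, 1823, 1318, 2032, and 2237 RPM in Slc29a3-/-, and 4272, 6637, 6483, and 11548 RPM in double mutant libraries. Every double mutant library was above every WT library, and WT replicate 4, which was the highest WT library for H2-Aa, H2-Ab1, and H2-Eb1, was the lowest for Cd74. Cd74 was 3.73-fold lower in Slc29a3-/- than in the double mutant (log2 -1.90 ± 0.28, adjusted p = 0.00242), the largest difference of a member between genotypes, and it was the only member called between the double mutant and WT in this subset (2.12-fold, log2 1.08 ± 0.28, adjusted p = 0.0323). The latter call was lost without WT replicate 1, 2, or 3 or double mutant replicate 3 or 4 (log2 0.83 to 1.16, adjusted p = 0.0505 to 0.0795), and with the replicate number as a block (1.08, adjusted p = 0.0546). Slc29a3-/- and WT differed by -0.82 (adjusted p = 0.107), which was called without WT replicate 4 (log2 -0.998, adjusted p = 0.0282).

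The genes of DM, H2-DMa and H2-DMb1, were both lower in Slc29a3-/- than in double mutant Ly6C hi cells. H2-DMa measured there 104, 105, 102, and 106 RPM in WT, 78.1, 85.9, 80.9, and 50.7 RPM in Slc29a3-/-, and 122, 177, 151, and 149 RPM in double mutant libraries. The 3 genotypes did not overlap, and WT replicate 4 stood close to the other WT libraries. H2-DMa was 2.04-fold lower in Slc29a3-/- than in the double mutant (log2 -1.03 ± 0.16, adjusted p = 0.000653). Its difference from WT in Slc29a3-/- cells had an adjusted p of 0.0284 with a fold of 1.43, below the fold threshold, except without Slc29a3-/- replicate 2, where it was called (log2 -0.60, adjusted p = 0.0226).

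H2-DMa in Ly6C low cells measured 44.3, 53.9, 42.7, and 60.5 RPM in WT, 23.9, 22.2, 27.5, and 34.2 RPM in Slc29a3-/-, and 32.1, 41.3, 40.01, and 62.7 RPM in double mutant libraries. All Slc29a3-/- libraries lay below all WT libraries, and the mutant ranges overlapped. It was 1.84-fold lower in Slc29a3-/- than in WT (log2 -0.88 ± 0.21, adjusted p = 0.0305), a call lost without any of WT replicates 1 to 3 or Slc29a3-/- replicates 1 to 3 (log2 -0.95 to -0.80, adjusted p = 0.0614 to 0.113). The difference between the mutants did not pass the test (-0.66, adjusted p = 0.143).

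H2-DMb1 measured 111, 99.7, 109, and 162 RPM in WT, 115, 118, 95.9, and 73.5 RPM in Slc29a3-/-, and 175, 160.2, 147, and 179 RPM in double mutant Ly6C hi libraries. The mutants did not overlap, and WT replicate 4 lay among the double mutant libraries while the other WT libraries lay among the Slc29a3-/- libraries. The mutants differed 1.66-fold (log2 -0.73 ± 0.17, adjusted p = 0.00956). In Ly6C low cells H2-DMb1 ranged from 37.2 to 63.1 RPM in WT, from 33.2 to 39.9 RPM in Slc29a3-/-, and from 53.8 to 123 RPM in double mutant libraries, and no genotype difference was called (mutants -0.97, adjusted p = 0.059). Leaving out double mutant replicate 1 or 2 brought the mutants' difference past the threshold (log2 -1.06, adjusted p = 0.0435, and -1.10, adjusted p = 0.0296). H2-DMb1 has a closely related neighbour, H2-DMb2, with which it may share reads.

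Ciita, the master regulator of class II genes, measured 66.3, 72.7, 72.3, and 181 RPM in WT, 105, 91.2, 58.3, and 70.4 RPM in Slc29a3-/-, and 233, 132, 156, and 122 RPM in double mutant Ly6C hi libraries. WT replicate 4 was far above the other WT libraries and lay within the double mutant range, and the mutants did not overlap. Ciita was 1.95-fold lower in Slc29a3-/- than in the double mutant (log2 -0.97 ± 0.30, adjusted p = 0.0332), a call lost without Slc29a3-/- replicate 3 or 4 or double mutant replicate 1 or 3 (log2 -0.96 to -0.77, adjusted p = 0.0652 to 0.0972), under TMM scaling (-0.86, adjusted p = 0.0514), and with Ddx3y as a term (-0.57, adjusted p = 0.117). Against WT, the double mutant differed by 0.79 (adjusted p = 0.137), by 1.13 without WT replicate 4, where it was called (adjusted p = 0.00692), and by -0.22 with WT replicate 4 alone.

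Ciita in Ly6C low cells measured 29.8, 38.3, 31.7, and 115 RPM in WT, 23.1, 27.1, 37.5, and 31.1 RPM in Slc29a3-/-, and 69.3, 89.3, 61.6, and 67.0 RPM in double mutant libraries. WT replicate 4 was here the highest of all 12 libraries, and all Slc29a3-/- libraries lay below all double mutant libraries. The mutants differed by -1.25 ± 0.34 on the log2 scale, which did not pass the test (adjusted p = 0.083). The double mutant differed from WT by 0.64 (adjusted p = 0.22), by 1.08 without WT replicate 4 (called, adjusted p = 0.00282), and by -0.69 with WT replicate 4 alone.

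Of the costimulatory ligands, Cd80 was the member with the fewest reads. Cd80 levels in Ly6C hi cells were 20.5, 21.8, 20.9, and 12.3 RPM in WT, 9.79, 9.17, 5.08, and 7.62 RPM in Slc29a3-/-, and 14.9, 9.67, 22.3, and 11.9 RPM in double mutant libraries. Slc29a3-/- libraries were all below WT, where replicate 4 was the lowest, and overlapped with the double mutant. Cd80 was 2.23-fold lower in Slc29a3-/- than in WT (log2 -1.16 ± 0.27, adjusted p = 0.00606), and it was 0.61 lower on the log2 scale, and not called, with WT replicate 4 alone. The mutants differed by -0.79 (adjusted p = 0.0507), which was called without double mutant replicate 2 (log2 -0.95, adjusted p = 0.0244).

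Cd80 in Ly6C low cells measured 10.6, 18.0, 13.7, and 9.35 RPM in WT, 3.58, 2.80, 4.10, and 4.69 RPM in Slc29a3-/-, and 8.32, 9.85, 7.66, and 1.998 RPM in double mutant libraries. The Slc29a3-/- libraries lay below every WT library, and double mutant replicate 4 was the lowest of all. Cd80 was 2.85-fold lower in Slc29a3-/- than in WT (log2 -1.51 ± 0.35, adjusted p = 0.0259). The call was lost in 7 of the 8 refits that left out 1 Slc29a3-/- or WT library, all but that without WT replicate 4 (log2 -1.60 to -1.35, adjusted p = 0.0563 to 0.103).

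Cd86, the other ligand of CD28, measured 52.6, 50.7, 46.6, and 48.7 RPM in WT, 28.5, 25.7, 23.9, and 15.7 RPM in Slc29a3-/-, and 41.4, 70.3, 48.0, and 52.3 RPM in double mutant Ly6C hi libraries. All 4 Slc29a3-/- libraries lay below the 8 others, and WT and double mutant libraries overlapped. Cd86 was 2.11-fold lower in Slc29a3-/- than in WT (log2 -1.08 ± 0.19, adjusted p = 0.00129) and 2.22-fold lower than in the double mutant (log2 -1.15 ± 0.19, adjusted p = 0.00094). The double mutant differed from WT by 0.07 (95% interval -0.34 to 0.48). With WT replicate 4 alone, the difference of Slc29a3-/- from WT was -1.05 and was not called (adjusted p = 0.155).

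Cd86 in Ly6C low cells measured 51.4, 54.4, 57.2, and 69.2 RPM in WT, 41.2, 50.2, 47.6, and 57.1 RPM in Slc29a3-/-, and 31.1, 42.7, 76.8, and 102 RPM in double mutant libraries. All genotypes overlapped there, the double mutant having both the lowest and the highest library. No difference was called (-0.24, adjusted p = 0.702, for Slc29a3-/- against WT, 95% interval -0.86 to 0.38).

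Cd40, the receptor of the T cell ligand CD154, was called in no genotype comparison. Cd40 levels in Ly6C hi cells were 45.6, 45.7, 42.5, and 46.5 RPM in WT, 55.1, 50.5, 48.6, and 33.8 RPM in Slc29a3-/-, and 90.4, 55.8, 51.0, and 61.4 RPM in double mutant libraries. The double mutant libraries lay above the WT libraries. Slc29a3-/- replicate 4 lay below all WT libraries and the other Slc29a3-/- libraries above them, replicate 1 within the double mutant range. The differences were 0.04 (95% interval -0.36 to 0.43) for Slc29a3-/- against WT, 0.48 (0.08 to 0.87) for the double mutant against WT, and -0.44 (-0.83 to -0.04) between the mutants. In Ly6C low cells the ranges were 18.3 to 34.1 RPM in WT, 13.7 to 20.2 RPM in Slc29a3-/-, and 16.6 to 29.1 RPM in double mutant libraries.

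Between the subsets, the DM genes, Ciita, and Cd40 were called in every genotype and the class II chains in none. In WT, 4 of the 10 genes were higher in Ly6C hi than in Ly6C low cells and none lower, against 17.5% higher and 8.46% lower of all 11042 genes: H2-DMa (2.07-fold, adjusted p = 0.000131), H2-DMb1 (2.33-fold, adjusted p = 0.0001), Ciita (1.95-fold, adjusted p = 0.0343), and Cd40 (1.95-fold, adjusted p = 0.00108). These 4 genes were higher in Ly6C hi cells of each genotype, at 2.66-, 2.70-, 2.65-, and 2.76-fold in Slc29a3-/- and 3.42-, 2.29-, 2.17-, and 2.62-fold in the double mutant. H2-DMa, H2-DMb1, and Cd40 in Ly6C hi cells lay above all Ly6C low libraries of the same genotype in all 3 genotypes. The Ciita call in WT was lost without Ly6C hi replicate 4 or Ly6C low replicate 1, 2, or 3 (log2 0.62 to 0.88, adjusted p = 0.0889 to 0.165), and in the double mutant without Ly6C hi replicate 1 (log2 0.93, adjusted p = 0.0544). With only replicate 4 of each WT subset, the 4 differences were 0.80, 1.43, 0.65, and 0.44, none called.

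In Slc29a3-/- cells 6 genes were higher in Ly6C hi cells (16.5% of all genes) and 1 was lower (18.5% of all genes). The gene that was lower was Cd86 (2.08-fold, log2 -1.06 ± 0.25, adjusted p = 0.00165), all 4 of its Ly6C hi libraries being below the 4 Ly6C low libraries. The further genes that were higher were Cd74 (1.59-fold, adjusted p = 0.0306) and Cd80 (1.84-fold, adjusted p = 0.0342). Both calls were lost when 1 library was left out: Cd74 without Ly6C hi or Ly6C low replicate 1 or 2 (log2 0.52 to 0.67), and Cd80 without Ly6C hi replicate 1, 2, or 4 or Ly6C low replicate 1, 2, or 3 (log2 0.77 to 0.91). Leaving out Ly6C hi replicate 4 added H2-Aa (log2 0.87, adjusted p = 0.029) and H2-Ab1 (0.94, adjusted p = 0.0485).

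In the double mutant 5 genes were higher in Ly6C hi cells (18.7% of all genes) and none lower (9.64% of all genes). Beside H2-DMa, H2-DMb1, Ciita, and Cd40 this was Cd80 (2.10-fold, adjusted p = 0.0134), whose call was lost without Ly6C hi replicate 3 or Ly6C low replicate 4 (log2 0.65 to 0.86). For H2-Aa, H2-Ab1, and H2-Eb1, the difference between the subsets was 0.09, 0.16, and -0.24 on the log2 scale in WT, 0.70, 0.69, and 0.14 in Slc29a3-/-, and 0.02, 0.10, and -0.45 in the double mutant, none called. Without Ly6C low replicate 1, H2-Eb1 of the double mutant was called lower in Ly6C hi cells (log2 -0.70, adjusted p = 0.0292). The 95% interval of H2-Aa in WT was -0.50 to 0.69, which does not show that the subsets have the same level.

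**Figure D3:**
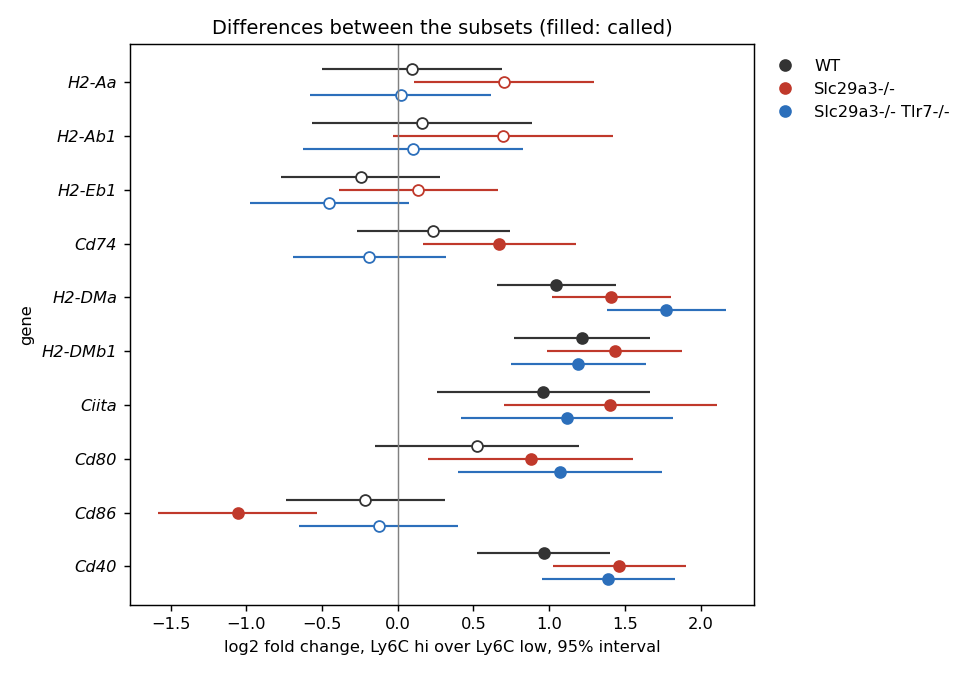
Log2 fold change of each gene in Ly6C hi over Ly6C low monocytes with the 95% interval of limma, by genotype; filled points were called. H2-DMa, H2-DMb1, Ciita, and Cd40 lie to the right of 0 in all 3 genotypes, and Cd86 lies to the left, filled in Slc29a3-/- cells alone.

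Set against WT replicate 4 by itself, H2-Eb1 was -0.53 in Slc29a3-/- Ly6C hi cells, and H2-Eb1, H2-DMa, and Cd80 were -1.43, -1.15, and -1.13 in Slc29a3-/- Ly6C low cells, none called. Cd74 in double mutant Ly6C low cells was 1.62, not called. The call that this setting added was Ciita in Slc29a3-/- Ly6C low cells (log2 -1.94, adjusted p = 0.0359). Without WT replicate 4, the double mutant Ly6C hi comparison gained H2-Aa (0.74, adjusted p = 0.0381), H2-DMb1 (0.63, adjusted p = 0.0244), and Cd74 (0.72, adjusted p = 0.0339). Without double mutant replicate 1, the Ly6C low comparison with WT gained H2-Ab1 (1.49, adjusted p = 0.0371) and H2-Eb1 (0.94, adjusted p = 0.0301).

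An interaction over all 24 libraries tested whether a genotype difference itself depended on the subset. No member was called for Slc29a3-/- against WT (4.11% of all genes higher, 4.65% lower), for the double mutant against WT (0.0272% and 0.0362%), or between the mutants (4.53% and 4.41%). At an unadjusted p under 0.05 and the same fold threshold, 1, 1, and 2 members passed. The share of all genes passing that rule is not given here, so these counts are no result about the members. The 2 members between the mutants were Cd86, with an interaction of -0.93 ± 0.36 on the log2 scale (adjusted p = 0.107), and Cd74, with 0.86 ± 0.35 (adjusted p = 0.121). Cd86 was called without Ly6C low double mutant replicate 4 (-1.21, adjusted p = 0.0198) and Cd74 without Ly6C low double mutant replicate 1 (1.08, adjusted p = 0.0359). The other members were Cd86 for Slc29a3-/- against WT (-0.84, adjusted p = 0.159) and H2-DMa for the double mutant against WT (0.73, adjusted p = 0.35).

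Ratios between members within a library do not depend on its scaling. The ratio of H2-Ab1 to H2-Aa was 0.328 to 0.373 in WT replicates 1 to 3 of Ly6C hi cells and 0.490 to 0.734 in the other 9 libraries, WT replicate 4 included (0.583). In Ly6C low cells it was 0.274 to 0.404 in WT replicates 1 to 3 and 0.424 to 0.699 in the others. The α and β chain genes were thus read in another proportion in these 3 libraries. The ratio of H2-Eb1 to H2-Aa also set them apart in Ly6C hi cells (0.873 to 0.911, against 0.645 to 0.811 in the others). In Ly6C low cells the ranges of that ratio overlapped (1.14 to 1.24 and 0.749 to 1.30). The H2-Ab1 values of WT, and the H2-Eb1 values of Ly6C hi WT, are to be read with this. The ratio of Cd74 to H2-Aa was 6.53 to 8.74 in the 12 Ly6C hi libraries, and in Ly6C low cells WT replicate 4 stood at 2.60 against 9.19 to 9.80 in the other WT libraries. The ratio of Cd86 to Cd80 was 2.06 to 7.28 in Ly6C hi libraries, 3.02 to 7.40 in Ly6C low WT libraries, and 11.5 to 17.9 in Slc29a3-/- Ly6C low libraries, with 50.9 in double mutant Ly6C low replicate 4. The ratio of H2-DMa to H2-Aa was 0.0433 to 0.0733 in double mutant Ly6C low libraries, below all Slc29a3-/- Ly6C low libraries (0.103 to 0.126) and overlapping with WT (0.0714 to 0.132).

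**Figure D4:**
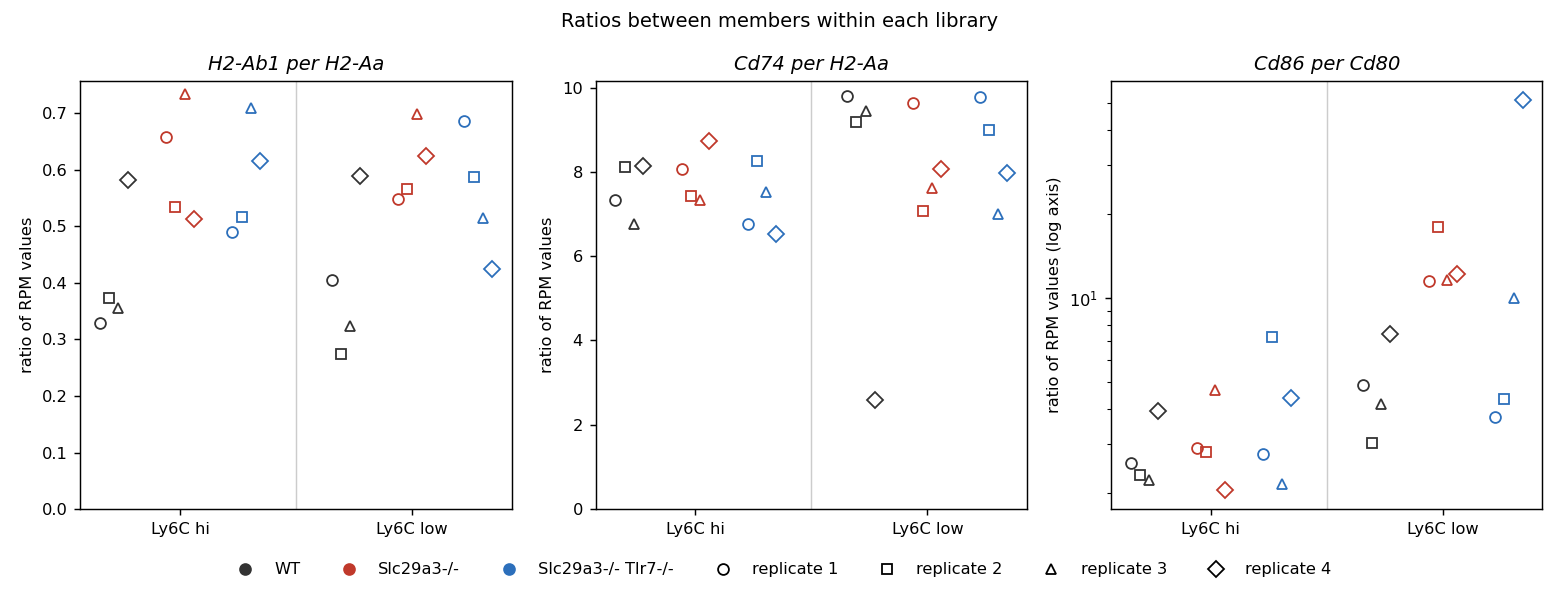
Ratio of RPM values of member pairs in each library; the first 2 axes start at 0 and the third is a log axis. Symbols are replicates and colours are genotypes. WT replicates 1 to 3 (black circle, square, and triangle) form the low points of H2-Ab1 per H2-Aa in both subsets, and WT replicate 4 is the low point of Cd74 per H2-Aa in Ly6C low cells.

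Ordered by mean level, the double mutant was highest for every member except Cd80: Ly6C low double mutant libraries led for H2-Aa, H2-Eb1, Cd74, and Cd86, and Ly6C hi double mutant libraries for H2-Ab1, H2-DMa, H2-DMb1, Ciita, and Cd40, and Ly6C hi WT libraries led for Cd80. Slc29a3-/- Ly6C low cells came last for every member except Cd86, for which Slc29a3-/- Ly6C hi cells came last. Most neighbours in these orders overlapped. The neighbours that did not overlap were picked after the groups were ordered by these levels. A lack of overlap by itself fixes the exact permutation p at 0.029, so this p does not test them. The share of all genes with such neighbours is not given here. Without overlap, the Ly6C low double mutant lay above Slc29a3-/- Ly6C hi cells for H2-Ab1. Ly6C hi WT lay so above Slc29a3-/- Ly6C hi cells for H2-Eb1 and H2-DMa. The Ly6C hi double mutant lay so above Ly6C hi WT for H2-DMa and Cd74. Further such neighbours were Slc29a3-/- Ly6C hi above Slc29a3-/- Ly6C low cells for Cd74, Slc29a3-/- Ly6C low above Slc29a3-/- Ly6C hi cells for Cd86, and Ly6C hi WT above the Ly6C low double mutant for Cd40.

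The mean log2(RPM + 1) of H2-Aa, H2-Ab1, H2-Eb1, and Cd74 was used to find genes of like pattern. Over the 12 Ly6C hi libraries, H2-DMb1 (Pearson's r = 0.94), H2-DMa (0.86), Cd40 (0.85), Ciita (0.78), Cd86 (0.68), and Cd80 (0.34) followed it in this order. In Ly6C low libraries the values were 0.88 for H2-DMb1, 0.81 for Ciita, 0.74 for H2-DMa, 0.72 for Cd40, and 0.55 for Cd86, Cd80 being below the level needed for the ranking. Outside the members, the genes most like it were Arrdc2 (0.95), Fam105a (0.93), Ly86 (0.93), Slamf8 (0.92), and Cd209a (0.91), which is also one of the dendritic cell markers used below, among 7548 genes in Ly6C hi cells, and H2-Oa (0.94), Alg12 (0.93), Ciz1 (0.92), Tars2 (0.91), and Anxa6 (0.91) among 7164 genes in Ly6C low cells. No gene was among the 5 of both subsets. The libraries of a group share genotype and preparation, so these values are descriptions.

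Of the other genes of class II presentation, 23 of 27 listed could be tested. In Slc29a3-/- against the double mutant, 9 were lower and 1 was higher in Ly6C hi cells, and 4 were lower and none higher in Ly6C low cells, and their median log2 fold change was -0.33 and -0.04. Of all genes, 8.22% were lower and 9% higher in Ly6C hi cells, and 0.708% and 1.22% in Ly6C low cells. The 4 genes called in both subsets were H2-Oa and H2-Ob, which encode DO, the inhibitor of DM, and the β chain genes H2-Eb2 and H2-DMb2. H2-Oa measured 2.38 to 4.22 RPM in Slc29a3-/- and 12.996 to 16.8 RPM in double mutant Ly6C hi libraries (log2 -1.90, adjusted p = 0.000466), and 5.33 to 12.2 and 25.02 to 49.9 RPM in Ly6C low libraries (-1.92, adjusted p = 0.00306), without overlap. H2-Ob differed by -1.55 and -1.39, H2-Eb2 by -1.30 and -2.34, and H2-DMb2 by -0.81 and -1.33 in Ly6C hi and Ly6C low cells.

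The remaining genes lower in Slc29a3-/- than in double mutant Ly6C hi cells were the proteases Ctss (-0.97) and Ctsl (-0.99), the interferon pathway genes Irf1 (-0.75) and Ifngr1 (-0.85), and Cd83 (-0.97), whose product stabilises surface class II. Nfyb, a subunit of the factor that binds CCAAT, was higher (1.07, adjusted p = 0.00896). Cd83 was at or below 4.17 RPM in all Ly6C hi libraries. The difference between the mutants differed between the subsets for Ctss (interaction -0.93, adjusted p = 0.0203) and Ctsl (-1.34, adjusted p = 0.00263).

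Against WT, 9 of the 23 genes were lower and 2 higher in Slc29a3-/- Ly6C hi cells (median -0.53), and 2 were lower and 1 higher in Slc29a3-/- Ly6C low cells (median -0.03). Of all genes, 14.3% were lower and 8.15% higher in Ly6C hi cells, and 2.53% and 1.9% in Ly6C low cells. H2-Oa was lower in both (-1.99 and -1.25), and March8, a ligase that takes class II off the surface, was higher in both (0.60, adjusted p = 0.0328, and 0.93, adjusted p = 0.0426). In Ly6C hi cells the others were H2-Ob (-2.21), H2-Eb2 (-0.96), H2-DMb2 (-0.98), Ctsl (-1.18), Ctsd (-0.61), Irf1 (-0.75), Jak1 (-0.59), and Cd83 (-1.19), which were lower, and Nfyb (0.91), which was higher. In Ly6C low cells Ifngr1 was lower (-0.71). In the double mutant, Rfxap was lower in Ly6C hi cells (-0.74), and H2-Eb2 was higher (1.21) and Ctsd lower (-1.20) in Ly6C low cells.

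Between the subsets, Ifi30, the thiol reductase of class II peptide loading, was higher in Ly6C hi cells of each genotype (1.66, 1.26, and 1.498 in WT, Slc29a3-/-, and the double mutant). Cd83 (-3.46, -3.42, and -2.48), Ctsb (-1.21, -1.48, and -0.85), and Ifngr1 (-1.18, -1.05, and -0.70) were lower. In all, 3 genes were higher and 3 lower in WT, 2 higher and 9 lower in Slc29a3-/-, and 2 higher and 6 lower in the double mutant. H2-Oa and H2-Ob were lower in Ly6C hi cells of both mutants (-1.16 and -1.99 in Slc29a3-/-, -1.18 and -1.83 in the double mutant), H2-Eb2 in the double mutant (-1.50), and Lgmn (-2.50), Ctss (-0.68), Ctsl (-0.87), and Irf1 (-0.95) in Slc29a3-/-. Higher in Ly6C hi cells were March8 in WT (0.89) and the double mutant (0.88), Ctsl in WT (0.62), and Nfyb in Slc29a3-/- (0.71). The log2 fold change of Slc29a3-/- against WT was more negative in Ly6C hi than in Ly6C low cells for H2-Ob (interaction -1.65), Ctsl (-1.50), and Jak1 (-0.82).

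Of 17 other costimulatory and coinhibitory ligands, 10 could be tested in Ly6C hi and 9 in Ly6C low cells. Icosl (-0.68), Cd48 (-0.86), and Icam1 (-0.91) were lower in Slc29a3-/- than in double mutant Ly6C hi cells, alongside Cd86. Cd24a moved the other way: it was higher in Slc29a3-/- than in the double mutant in both subsets (log2 2.14, adjusted p = 0.000211, and 1.55, adjusted p = 0.0121) and than in WT in Ly6C hi cells (1.45), and lower in the double mutant than in WT in Ly6C low cells (-1.27). Cd276 was higher in Slc29a3-/- than in double mutant Ly6C low cells (1.75). Cd274, which encodes the inhibitory ligand PD-L1, was 7.54-fold lower in Ly6C hi than in Ly6C low cells of WT, 8.76-fold in Slc29a3-/-, and 6.79-fold in the double mutant, and was called between genotypes in neither subset. Its values were 14.4 to 27.2 RPM in Ly6C hi and 174 to 187 RPM in Ly6C low WT libraries. Lgals9 (2.01, 2.66, and 2.27) and Cd24a (2.74, 3.91, and 3.32) were higher in Ly6C hi cells of each genotype. Cd48 was lower in Ly6C hi cells of WT (-0.79) and Slc29a3-/- (-1.27), Icosl was higher in those of Slc29a3-/- (0.71), Icam1 was higher in those of the double mutant (0.76), and Cd276 was lower in those of Slc29a3-/- (-1.22) and higher in those of the double mutant (0.96). The interaction between the mutants was called for Cd276 (-2.18) and Cd48 (-1.02).

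Of the 10 genes tested that act downstream of CD40, Traf5 was lower in Slc29a3-/- Ly6C hi cells than in WT (-0.69) and than in the double mutant (-0.71), and Traf6 was lower than WT in Ly6C low cells of both mutants (-0.73 and -0.67). Tnfaip3 was lower than WT in Slc29a3-/- Ly6C hi cells (-2.95) and in double mutant Ly6C low cells (-2.18), its WT libraries spanning 37.6 to 342 and 34.5 to 339 RPM. Between the subsets, Traf1 was lower in Ly6C hi cells of each genotype (-1.21, -2.01, and -1.70), Traf3 was lower and Traf5 higher in WT (-0.71 and 0.60) and in the double mutant (-0.62 and 0.62), and Nfkb2 (-0.78) and Birc3 (-0.80) were lower in Slc29a3-/-.

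Of 13 genes of the MHC class I pathway, Nlrc5 (-0.63), the class I counterpart of Ciita, and Psmb10 (-0.59) were lower in Slc29a3-/- than in double mutant Ly6C hi cells, and Psmb9 was higher in the double mutant than in WT (0.95). None of the 13 was called in the other genotype comparisons. The class I genes had a median of -0.30 between the mutants in Ly6C hi and -0.19 in Ly6C low cells. H2-K1 (-0.89, -1.46, and -1.44) and B2m (-0.77, -0.90, and -1.06), the class I heavy and light chains, were lower in Ly6C hi cells of each genotype, and H2-D1 in those of Slc29a3-/- (-1.45).

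Markers of other cells that carry class II were read in the same libraries. In Ly6C hi libraries, the 11 conventional dendritic cell markers summed lower in Slc29a3-/- than in the double mutant, as did the class II genes. Their sum was 279 to 372 RPM in WT, 87.7 to 198 RPM in Slc29a3-/-, and 248 to 316 RPM in the double mutant. Unlike H2-Aa, H2-Ab1, H2-Eb1, and Cd74, the sum was on average highest in WT (340 RPM, against 293 RPM in the double mutant). In Ly6C low libraries it was 170 to 291 RPM in WT, 199 to 239 RPM in Slc29a3-/-, and 203 to 239 RPM in the double mutant, but these sums were mostly Dpp4 (182 RPM on average in Slc29a3-/- and 139 RPM in the double mutant). Of 10 tested between the mutants there, 4 were lower in Slc29a3-/- and none higher (median log2 fold change -0.89), and the rest were not called. Of all genes, 0.708% were lower and 1.22% higher in that comparison. The markers called were Flt3 (-1.47), Zbtb46 (-1.56), Clec9a (-1.49), and Cd209a (-1.58, 2.31 to 5.29 against 9.69 to 20.9 RPM). In Ly6C hi cells, 7 of 10 were lower in Slc29a3-/- and none higher (median -1.39), against 8.22% and 9% of all genes. Dpp4 made up 45.8% to 81.9% of the sums by group, and Itgae was below 1 RPM in every library of 3 of the groups. The sum of 7 plasmacytoid dendritic cell markers, mostly Runx2 in Ly6C low cells, was 76.2 to 169 RPM, 36.0 to 48.1 RPM, and 67.7 to 92.5 RPM in WT, Slc29a3-/-, and double mutant Ly6C hi libraries, and 178 to 245 RPM, 136 to 153 RPM, and 61.5 to 116 RPM in Ly6C low libraries. The part of dendritic cells in the results of either subset was not tested.

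The 8 B cell markers in the table summed to 15.4 to 61.5 RPM, of which Cd79b made up more than 90% in each group, and Cr2 was below 1 RPM in all 24 libraries. The B cell sum was higher in Slc29a3-/- (37.5 to 61.5 RPM) than in double mutant (16.3 to 33.2 RPM) Ly6C low libraries, opposite to the class II genes. In Ly6C hi libraries its mean was lower in Slc29a3-/- (17.5 RPM) than in the double mutant (25.7 RPM), as for the class II genes. The ranges of the mutants overlapped there, and the mean was highest in WT (35.8 RPM). The part of B cells was not tested. The sum of 7 neutrophil markers was 38930 to 74889 RPM in Slc29a3-/- Ly6C hi libraries, against 12654 to 20187 RPM in WT and 5805 to 20182 RPM in the double mutant. Slc29a3-/- Ly6C hi replicate 4 had the highest of these sums and the lowest value of its group for all members except Ciita and Cd80. Between the mutants in Ly6C hi cells, 7 to 9 of the 10 genes were called when any 1 library was left out, replicate 4 included, and the part of neutrophil RNA was not tested. In Ly6C low libraries the sum was 1.75 to 1231 RPM. The summed T cell markers (1.76 to 288 RPM) and NK cell markers (1.19 to 353 RPM) were highest in Ly6C hi WT replicates 1 to 3 and Ly6C hi double mutant replicate 1. The 9 markers of red pulp macrophages summed to 280 to 1603 RPM, mostly Hmox1, with C1qa and C1qc below 1 RPM throughout. In Ly6C low cells the sum was 511 to 599 RPM in WT, 619 to 1089 RPM in Slc29a3-/-, and 280 to 1603 RPM in the double mutant. Of 7 tested between the mutants 3 were higher in Slc29a3-/- and none lower (median 1.22), against 1.22% and 0.708% of all genes. Spic (1.39), Cd5l (2.41), and C1qb (1.57) were the 3, opposite to the class II genes. Hmox1 was not among them, and its mean was lower in Slc29a3-/- (467 RPM) than in the double mutant (609 RPM), as for the class II genes. The part of macrophages was not tested.

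**Figure D5:**
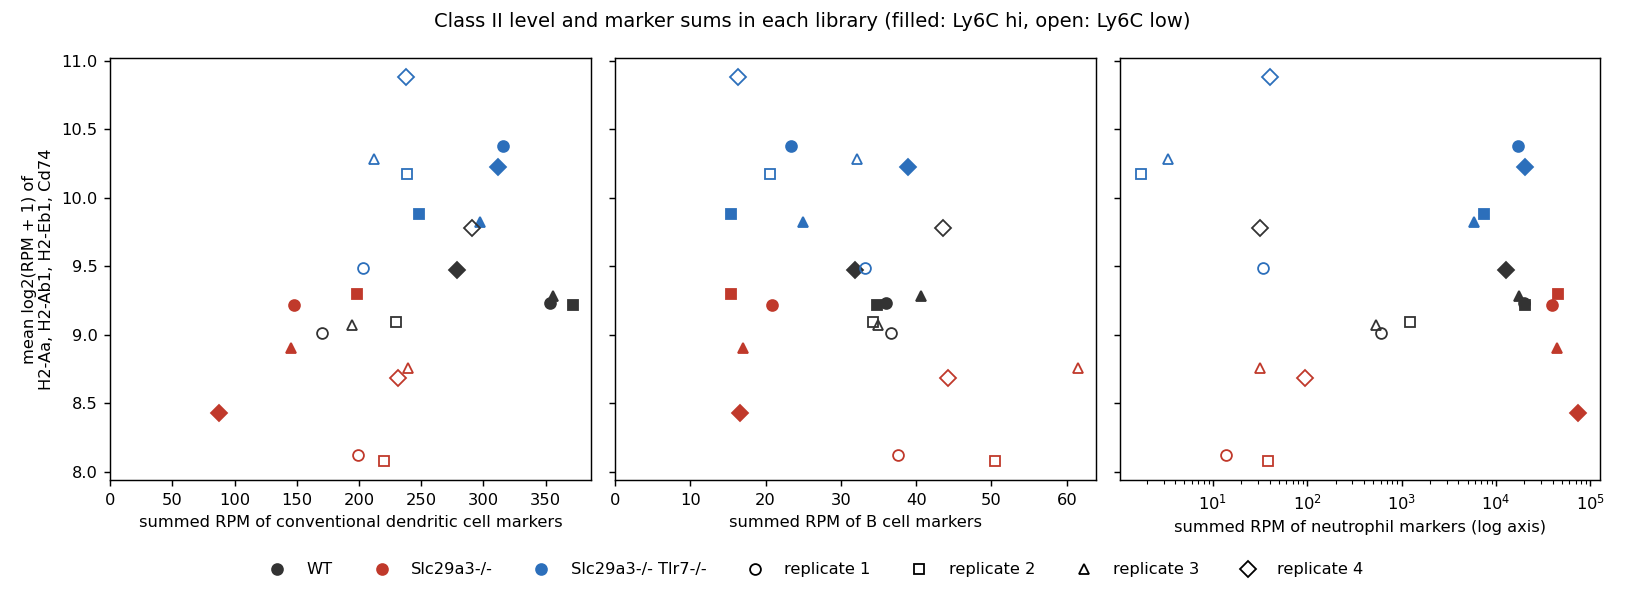
Mean log2(RPM + 1) of H2-Aa, H2-Ab1, H2-Eb1, and Cd74 in each library (y axis) against the summed RPM of conventional dendritic cell, B cell, and neutrophil markers (x axes, the last one logarithmic). Filled symbols are Ly6C hi and open symbols Ly6C low libraries. Ly6C hi Slc29a3-/- libraries (filled red) lie at the low end of the dendritic cell sum and the high end of the neutrophil sum, whereas Ly6C low libraries of both mutants lie at a dendritic cell sum of 199 to 239 RPM, most of it Dpp4, although 4 of the 10 markers tested were lower in Slc29a3-/- there.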

How the data were processed

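RNA of 24 sorted splenic monocyte libraries (4 in each of 6 groups) was read with Ion AmpliSeq on an Ion Proton, 1 amplicon per gene. The authors deposited 1 table of RPM values (reads per 1000000 reads of the library). The AmpliSeqRNA plug-in (5.2.0.3), Torrent Suite (5.2.2), and mm10 are named in the submitters' processing notes, and the study's methods name Cutadapt, STAR, HTSeq, and DESeq2. Which step wrote the table is not given in the sources used here. Scaling to the library total makes every value relative to the other genes of its library.

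From the table, 27 gene names turned into dates by a spreadsheet were repaired, 0.0001 was read as 0, and log2(RPM + 1) was tested with limma 3.58.1 (trend, R 4.3.3) over features with at least 1 RPM in at least 4 libraries. Genotypes were compared within the 12 libraries of a subset, and subsets and interactions over all 24. The count tests of the study were not used, because the table holds no counts. Depth was inferred from the steps of low values, of which 100.0% under 5 RPM were whole reads within 0.1 read. The interval of a value covers the spread between libraries. Exact permutation tests used scipy 1.17.1. The procedure was tested on simulated data. Alternatives changed the scaling, pseudocount, filter, groups in the fit, block, call rule, a term for Ddx3y, and libraries.

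Replicate numbers are shared by the labels of all groups. Same-numbered WT libraries of the 2 subsets deviated together (r of 0.26 to 0.61 across genes). However, only 2 of the 4 numbers were each other's best match. Ly6C hi replicates 2 and 3 had a higher r with another number (0.30 and 0.32), so pairing of WT libraries by number is not shown. In Slc29a3-/- (-0.10 to 0.19) and the double mutant (-0.50 to 0.37), and between genotypes, not every pair was above 0.1, and the numbers were not taken to pair libraries.

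The 10 genes, the other gene lists, and the markers were chosen with earlier results of these data known. Listed genes were named where called in at least 1 comparison, and in each subset the 5 genes closest to the mean of H2-Aa, H2-Ab1, H2-Eb1, and Cd74 were named. Nfyc, Vsir, Map3k14, Cd79a, Ighm, Trac, Ly6c2, and Chil3 were listed and not analysed here, and 1 further listed gene is not reported here. Positions are from GENCODE vM21 (mm10) and promoter sequences from RefSeq (GRCm38.p6).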

Additional observations from a re-analysis of the deposited data

Results flagged for a closer look

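Of 60 groups of 4 libraries (10 genes in 6 groups), 8 had a library whose gap to the nearest other exceeded Dixon's 95% critical value, where chance gives about 1 in 20. WT replicate 4, the WT library outside barcodes 11 to 16, was the library in 7 of the 8.

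In Ly6C low WT cells, replicate 4 was the highest for H2-Aa (847 RPM, the others 353 to 409 RPM), H2-Ab1 (498 RPM, the others 112.0 to 143 RPM), Ciita (115 RPM, the others 29.8 to 38.3 RPM), and Cd40 (34.1 RPM, the others 18.3 to 20.8 RPM). In Ly6C hi WT cells, replicate 4 was the highest for H2-Ab1 (306 RPM, the others 163 to 182 RPM) and Ciita (181 RPM, the others 66.3 to 72.7 RPM) and the lowest for Cd80 (12.3 RPM, the others 20.5 to 21.8 RPM). Replicate 4 was also the WT library with Ddx3y above 10 RPM in each subset, so the barcode range and sex cannot be told apart in these libraries.

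In Slc29a3-/- Ly6C hi cells, replicate 4 was the lowest for H2-Ab1 (133 RPM, the others 253 to 277 RPM). The same library had the highest sum of neutrophil markers (74889 RPM), whose part in the low value was not tested.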

How the results depend on the processing

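Of 2297 member values under alternatives, 105 lost and 44 gained a call, and 33 called neither way moved by more than the spread of their groups. In all, 83 had the opposite sign to the value reported, none of them called in either. The alternatives with edgeR and DESeq2 on recovered reads were not run, because the deposited values are RPM, with 0 written as 0.0001, and not counts. H2-Aa, H2-Ab1, H2-Eb1, H2-DMa, H2-DMb1, Cd74, and Cd86 kept their call between the mutants in Ly6C hi cells, and H2-Aa, H2-Eb1, and Cd74 in Ly6C low cells, in all 16 alternatives tried. Comparisons with WT depended on the WT libraries.

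Counts of members called that moved by over 1.5 times were as follows. For Slc29a3-/- against WT in Ly6C hi cells (3), 0 were called with WT replicate 4 alone and 1 with WT replicates 1 to 3 counted as 1 library, an alternative added after seeing the data. For the double mutant against WT in Ly6C hi cells (1), TMM scaling gave 2, an unadjusted p gave 4, and no filter, a fit of only the groups compared, WT replicate 4 alone, WT replicates 1 to 3 as 1 library, and Ddx3y as a term (added after seeing the data) each gave 0. For Slc29a3-/- against WT in Ly6C low cells (3), the fit of only the groups compared and an unadjusted p gave 5, WT replicate 4 alone gave 1, and no filter and WT replicates 1 to 3 as 1 library gave 0. For the double mutant against WT in Ly6C low cells (1), TMM and RLE scaling gave 2, an unadjusted p gave 4 higher and 1 lower (of all genes 627 and 1508, against 235 and 622), and no filter, the fit of only the groups compared, WT replicate 4 alone, and WT replicates 1 to 3 as 1 library gave 0. Between the mutants in Ly6C low cells (4), an unadjusted p gave 7. Between the subsets in WT (4), WT replicate 4 alone gave 0 and WT replicates 1 to 3 as 1 library gave 2. For the interactions (0), an unadjusted p gave 1, 1, and 2, and the fit of only the groups compared gave 1 for Slc29a3-/- against WT. Except where printed, the share of all genes called under these alternatives is not given here, so the counts of members are not set against it. The cause was not tested.

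With 1 library left out, 2 to 4 members were called for Slc29a3-/- against WT, 0 to 5 for the double mutant against WT, and 7 to 9 between the mutants in Ly6C hi cells, and 0 to 4, 0 to 4, and 3 to 5 in Ly6C low cells. Between the subsets, 3 to 4 were called in WT, 5 to 8 in Slc29a3-/-, and 4 to 6 in the double mutant, and 0 to 1 for the interaction between the mutants and 0 for the others.

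With the replicate number as a block, the double mutant against WT gave 0 in Ly6C hi and 2 in Ly6C low cells, the latter being H2-Aa and H2-Ab1, while Cd74 lost its call. The block gave 3 and 8 for the other Ly6C hi comparisons, 4 and 5 for the other Ly6C low comparisons, 4, 6, and 5 between the subsets in WT, Slc29a3-/-, and the double mutant, and 0 for the interactions. The WT count between the subsets stayed at 4, although pairing by number is not shown there either.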
